A study of Mus musculus with 18 samples.

Results

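Mast cells, basophils and eosinophils are granule-bearing cells of the myeloid lineage, and 9 of their genes were followed through sorted mouse stem and progenitor cells: Mcpt8, Cpa3, Prg2, Prg3, Epx, Ms4a2, Fcer1a, Ccr3 and Hdc. Members were taken by gene symbol, each had 1 probe set on the array, and they are 9 of the 19505 genes measured. The 6 groups were 3 blood-forming populations from adult bone marrow (BM) and the same 3 from fetal liver (FL): LT-HSC, stem cells with long-term repopulating capacity, ST-HSC, stem cells with short-term capacity, and MPP, multipotent progenitors. BM came from adult C57Bl/6J mice 3 to 12 months old and FL from C57Bl/6J embryos at E13.5. Cells were sorted as lineage-negative, Sca-1+ and Kit+ (LSK) and divided by Cd150 and Cd48 staining, but no source used here states the exact gates. Each group held 3 arrays, named a, b and c after the titles. The free-text descriptions go against the titles, source names and stages. They speak of transplanted bone marrow and of a guide, sgEzh2 in 4 FL arrays (FL LT-HSC a, FL ST-HSC a, FL MPP a and FL MPP b) and sgLuc in the others, with a BRSST sgRNA in every FL array. The titles were followed, and a member's call that was lost without those 4 arrays is named with its value. No label states whether replicate arrays stem from different animals. The p-values therefore cover only the scatter among these samples, which could be technical.

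These lineages arise from committed progenitors that descend from the MPP, and the cells carry preformed granules. Mcpt8 encodes a serine protease that in the mouse marks basophils, and Cpa3 encodes carboxypeptidase A3 of mast cell granules, which basophils and early mast cell progenitors also make. Prg2 and Prg3 encode major basic proteins and Epx encodes eosinophil peroxidase, all stored in eosinophil granules. Fcer1a and Ms4a2 encode the alpha and beta chains of the high-affinity receptor for IgE on mast cells and basophils. Ccr3 is the eotaxin receptor of eosinophils, which basophils also carry, and Hdc encodes histidine decarboxylase, the enzyme that makes histamine.

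All levels below are log2 signals, and a difference is a difference of log2 signals, BM minus FL or MPP minus LT-HSC. A gene is called where limma's adjusted p (Benjamini-Hochberg over all 19505 genes) is under 0.05. Levels of different genes are not compared, because each probe set has its own scale. Arrays had medians of 7.68 to 7.78. Array BM LT-HSC c stood apart: it was the highest of the 18 arrays for 7 of the 9 members, and BM MPP b was the highest for Cpa3 and Ms4a2. Genes of other cells were also high on it. The mean of 12 late neutrophil genes was 12.43 on BM LT-HSC c, beside 10.86 and 11.05 on the other BM LT-HSC arrays, and 6.35 to 7.24 over all FL arrays. The mean of 8 B cell genes was 10.14 on BM LT-HSC c, beside 9.06 and 9.11 on the other BM LT-HSC arrays, and that of 10 macrophage genes was 8.40, beside 7.42 and 7.59. Values without this array are given beside the results it changes most. Of the 9 members, Ms4a2 and Ccr3 had means over the arrays below the 30th percentile of all genes, which was 6.72.

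The 250 bases before the RefSeq start (GRCm38.p6) are given as sequence context for 4 members that differed from each other in pattern: Mcpt8 (chr14:56085198-56085447, minus strand), Cpa3 (chr3:20242182-20242431, minus strand), Ms4a2 (chr19:11623720-11623969, minus strand) and Ccr3 (chr9:124021721-124021970, plus strand). Each is written 5′ to 3′ on the gene's strand, with capitals at matches to AGATAA or TGATAA, the letters of a GATA motif, on either strand.
Mcpt8: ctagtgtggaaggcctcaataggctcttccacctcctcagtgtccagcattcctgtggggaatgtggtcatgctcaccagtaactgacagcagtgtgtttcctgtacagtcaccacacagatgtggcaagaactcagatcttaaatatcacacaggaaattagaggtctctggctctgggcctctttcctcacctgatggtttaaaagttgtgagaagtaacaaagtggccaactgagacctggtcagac
Cpa3: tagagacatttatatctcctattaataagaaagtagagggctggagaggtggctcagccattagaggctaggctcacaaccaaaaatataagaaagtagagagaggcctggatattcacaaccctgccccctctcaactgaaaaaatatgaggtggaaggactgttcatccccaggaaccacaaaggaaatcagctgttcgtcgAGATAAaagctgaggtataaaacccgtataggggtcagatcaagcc
Ms4a2: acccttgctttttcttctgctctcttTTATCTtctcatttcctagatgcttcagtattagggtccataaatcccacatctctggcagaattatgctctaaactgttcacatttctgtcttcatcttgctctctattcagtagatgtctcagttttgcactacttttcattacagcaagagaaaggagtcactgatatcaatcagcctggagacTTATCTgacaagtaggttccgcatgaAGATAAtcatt
Ccr3: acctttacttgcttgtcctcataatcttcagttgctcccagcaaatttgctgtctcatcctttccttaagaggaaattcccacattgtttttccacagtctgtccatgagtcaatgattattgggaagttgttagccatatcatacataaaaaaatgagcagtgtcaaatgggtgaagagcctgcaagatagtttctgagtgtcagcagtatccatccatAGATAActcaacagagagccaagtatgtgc
The Mcpt8 and Ccr3 windows lie wholly inside the annotated span of the gene, in front of an inner start, and the last 71 bases of the Ms4a2 window and the last 28 of the Cpa3 window also lie inside the annotated span. The GATA letters were found once in the Cpa3 window, 46 bases before the start, once in that of Ccr3, 30 bases before it, and at 3 places in that of Ms4a2, 224, 37 and 11 bases before it. They also occurred in the windows of Prg3 and Fcer1a, so that 5 of the 8 members with a promoter entry held them, beside 16.6% of 32851 promoter windows of the same length. Prg2 had no entry. Letters of 3 other motifs were searched on both strands in the same windows. TTGCNNAA was in 1 member, Fcer1a, beside 9.56% of windows. AGGAAG was in Prg3 and Hdc, 2 of the 8, beside 29.5%. CANNTG was in 7 of the 8, beside 66.2%. No match to these 3 shared a base with a GATA match in a member's window. A match describes the letters and is not evidence of a bound site.

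Over the mean of the 3 populations, 6 of the 9 members were called higher in BM than in FL: Mcpt8, Prg2, Epx, Ms4a2, Ccr3 and Hdc. None was called lower. Of all genes, 9.26% were called higher and 15.9% lower in that comparison. The median difference was 0.52 over the 9 members and -0.01 over all genes. In bulk RNA of sorted cells, more cells of a type and more RNA per cell cannot be told apart. The 6 calls were also made without BM LT-HSC c, beside 10.3% of all genes called higher in that fit, but without the 4 arrays whose interquartile range was more than 0.2 below the median of all arrays (the narrow arrays: BM LT-HSC c, BM ST-HSC b, BM ST-HSC c and FL LT-HSC b) only Mcpt8, Ms4a2 and Ccr3 were called, and likewise without the 4 arrays described as sgEzh2. Prg2 had a difference of 0.62 (adjusted p = 0.156) without the narrow arrays and of 1.10 (adjusted p = 0.133) without those described as sgEzh2. Epx had 0.41 (adjusted p = 0.0637) and 0.53 (adjusted p = 0.132) in these fits, and Hdc 0.48 (adjusted p = 0.0957) and 0.54 (adjusted p = 0.186).

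**Figure D1:**
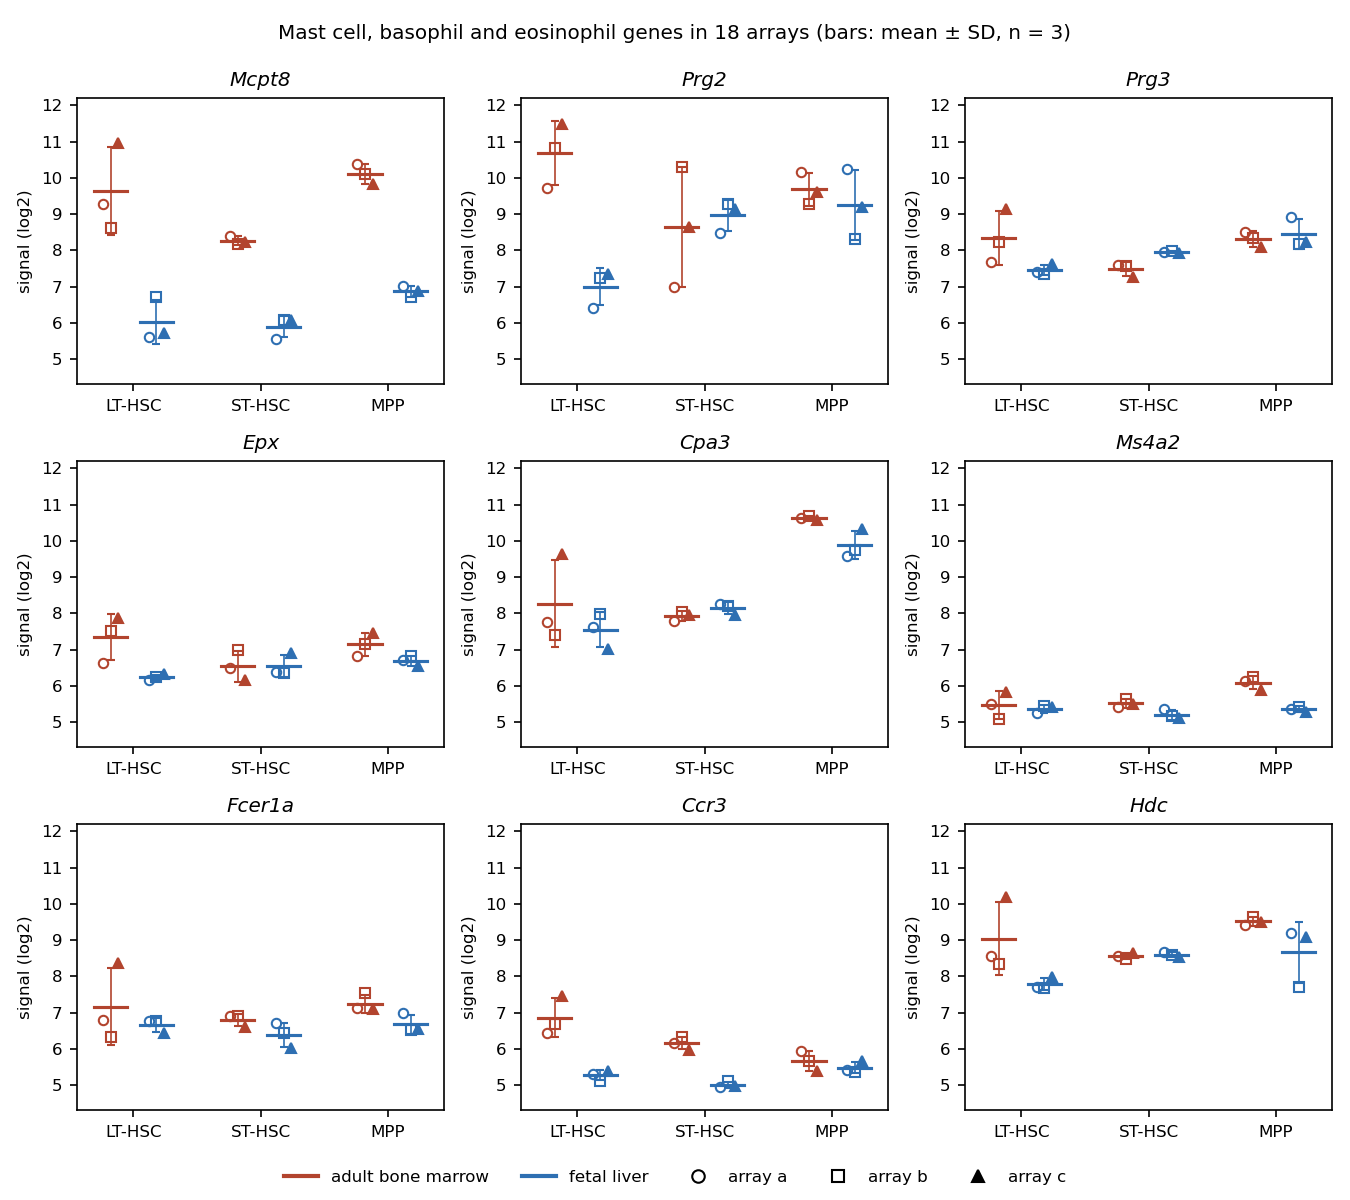
Log2 signal of the 9 members on the 18 arrays, 1 panel a gene, with BM left of FL within each population and marks for arrays a, b and c; bars are the mean ± SD of 3 arrays. Every BM array lies above every FL array for Mcpt8, and array c of BM LT-HSC is the highest of its group in all 9 panels.

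Among the granule proteases, Mcpt8 separated the sources in every population. In LT-HSC it read 9.29, 8.61 and 10.97 on the BM arrays, against 5.61, 6.72 and 5.72 on the FL arrays. In ST-HSC it read 8.40, 8.18 and 8.23 in BM, against 5.56, 6.06 and 6.07 in FL. In MPP it read 10.39, 10.11 and 9.84 in BM, against 7.02, 6.71 and 6.88 in FL. The lowest BM array, one of ST-HSC, thus lay above the highest FL array, one of MPP. The mean difference was 3.07 ± 0.23 (SE), an 8.41-fold higher signal in BM (limma, adjusted p = 2.42e-08). By population it was 3.61 ± 0.40 in LT-HSC (adjusted p = 1.18e-05), 2.37 ± 0.40 in ST-HSC (adjusted p = 0.000729) and 3.24 ± 0.40 in MPP (adjusted p = 4.03e-05). Without BM LT-HSC c the LT-HSC difference was 2.93 and still called. Across the BM populations, Mcpt8 was lowest in ST-HSC. It was 1.85 ± 0.40 higher in BM MPP than in BM ST-HSC (adjusted p = 0.0116), a call that was lost when BM ST-HSC b, BM ST-HSC c, BM MPP a or BM MPP b was left out, with an adjusted p of 0.0516 to 0.0567. Between MPP and LT-HSC of BM the difference was 0.49 ± 0.40 (adjusted p = 0.609) with all arrays and 1.16 (adjusted p = 0.0138) without BM LT-HSC c.

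Cpa3 followed the population in both sources. It read 10.64, 10.68 and 10.58 on the BM MPP arrays, against 7.77, 7.39 and 9.64 on the BM LT-HSC arrays. In FL it read 9.57, 9.75 and 10.33 in MPP, against 7.62, 7.98 and 7.02 in LT-HSC. MPP arrays lay above LT-HSC arrays in both sources without overlap, although BM LT-HSC c reached the range of the FL MPP arrays. ST-HSC stayed near LT-HSC, with 7.78, 8.04 and 7.97 in BM and 8.26, 8.21 and 7.96 in FL. The difference of MPP from LT-HSC was 2.37 ± 0.39 in BM, or 5.15-fold (adjusted p = 0.00121), and 2.34 ± 0.39 in FL, or 5.07-fold (adjusted p = 0.00124). Without BM LT-HSC c the BM difference was 3.05. Without the 4 arrays described as sgEzh2 the FL difference was 2.83 and no longer called (adjusted p = 0.0864). The difference of these 2 differences was 0.02 ± 0.55 (adjusted p = 0.998), so an unequal step in BM and FL was not detected at this precision. From ST-HSC to MPP the difference was 2.71 ± 0.39 in BM (adjusted p = 0.000778) and 1.74 ± 0.39 in FL (adjusted p = 0.0207), the FL call being lost without any 1 of FL ST-HSC a, FL ST-HSC b, FL ST-HSC c, FL MPP b and FL MPP c, with adjusted p of 0.0554 to 0.125. Without the arrays described as sgEzh2 it was 2.24 and not called (adjusted p = 0.326). Between sources, Cpa3 was not called in any population. In MPP all 3 BM arrays were above all 3 FL arrays, with a difference of 0.75 ± 0.39 (adjusted p = 0.379, and 0.0328 without BM LT-HSC c, an array this difference does not use but the shared estimate of the spread does).

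The eosinophil granule genes Prg2, Prg3 and Epx were called higher in BM than in FL in the LT-HSC, with all arrays in the fit. Prg2 read 9.72, 10.83 and 11.49 in BM LT-HSC, against 6.41, 7.23 and 7.34 in FL LT-HSC. That is a difference of 3.69 ± 0.63, or 12.9-fold (adjusted p = 0.00088), and 3.28 without BM LT-HSC c (adjusted p = 0.00382). In the other populations the arrays of BM and FL overlapped. In ST-HSC it read 6.99, 10.31 and 8.63 in BM, against 8.47, 9.27 and 9.15 in FL, so that the BM ST-HSC arrays alone spread over more than 3 log2 units (SD 1.66). In MPP it read 10.17, 9.28 and 9.60 in BM, against 10.24, 8.32 and 9.21 in FL. The differences there were -0.32 ± 0.63 in ST-HSC (adjusted p = 0.744) and 0.42 ± 0.63 in MPP (adjusted p = 0.861).

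Within FL, Prg2 was lowest in LT-HSC, and MPP exceeded LT-HSC by 2.26 ± 0.63 (adjusted p = 0.0581). Within BM the same difference was -1.001 ± 0.63 (adjusted p = 0.469). The contrast between the sources, -3.26 ± 0.89, did not pass the threshold (adjusted p = 0.144), and neither did the F test, which asks whether any step between populations differs by source (adjusted p = 0.0644). Without the narrow arrays the contrast was -2.98. That fit leaves BM ST-HSC with array a alone, whose Prg2 signal of 6.99 was the lowest of its group. Only the estimate is therefore given, whether or not the tests of that fit passed. The contrast does not use BM ST-HSC, but the F test and the shared estimate of the spread do. Both tests called Prg2 with array weights (adjusted p = 0.0495 and 0.0191) and without BM ST-HSC a (adjusted p = 0.043 and 0.0297). The F test alone was called without BM ST-HSC b (adjusted p = 0.0114), without BM LT-HSC a (adjusted p = 0.0338) and with trended and robust eBayes (adjusted p = 0.0457).

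Prg3, which lies beside Prg2 on chromosome 2 (84988196 to 84996559, Prg2 at 84980461 to 84983632, GRCm38.p6), spanned less. It read 7.67, 8.23 and 9.13 in BM LT-HSC, against 7.39, 7.36 and 7.62 in FL LT-HSC, where the arrays did not overlap. The difference of 0.89 ± 0.27 had an adjusted p of 0.04998, at the edge of the threshold. It was lost in 16 of the 18 fits that left out 1 array, with a difference of 0.49 and an adjusted p of 0.18 without BM LT-HSC c. Without the arrays described as sgEzh2 it was 0.85 (adjusted p = 0.207). In ST-HSC all BM arrays, at 7.60, 7.57 and 7.25, lay below all FL arrays, at 7.95, 7.99 and 7.92, with a difference of -0.48 ± 0.27 that was not called (adjusted p = 0.208). In FL, MPP exceeded LT-HSC by 0.98 ± 0.27 (adjusted p = 0.0508), which was not called.

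Epx read 6.64, 7.51 and 7.87 in BM LT-HSC, against 6.17, 6.23 and 6.31 in FL LT-HSC. Its 3 FL arrays lay close together, all below the BM arrays. The difference was 1.10 ± 0.26 (adjusted p = 0.0133), and 0.83 (adjusted p = 0.0546) without BM LT-HSC c. Without FL LT-HSC a it was 1.07 (adjusted p = 0.0546), without the narrow arrays 0.83 (adjusted p = 0.0587) and without those described as sgEzh2 1.07 (adjusted p = 0.126). The call was lost in each of these fits, with array weights (adjusted p = 0.0771) and with only the groups compared in the fit (adjusted p = 0.122). In ST-HSC the means were 6.54 ± 0.43 in BM and 6.54 ± 0.31 in FL (SD, n = 3 each). In MPP they were 7.14 ± 0.32 in BM and 6.69 ± 0.13 in FL, and the difference of 0.45 ± 0.26 was not called (adjusted p = 0.46).

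**Figure D2:**
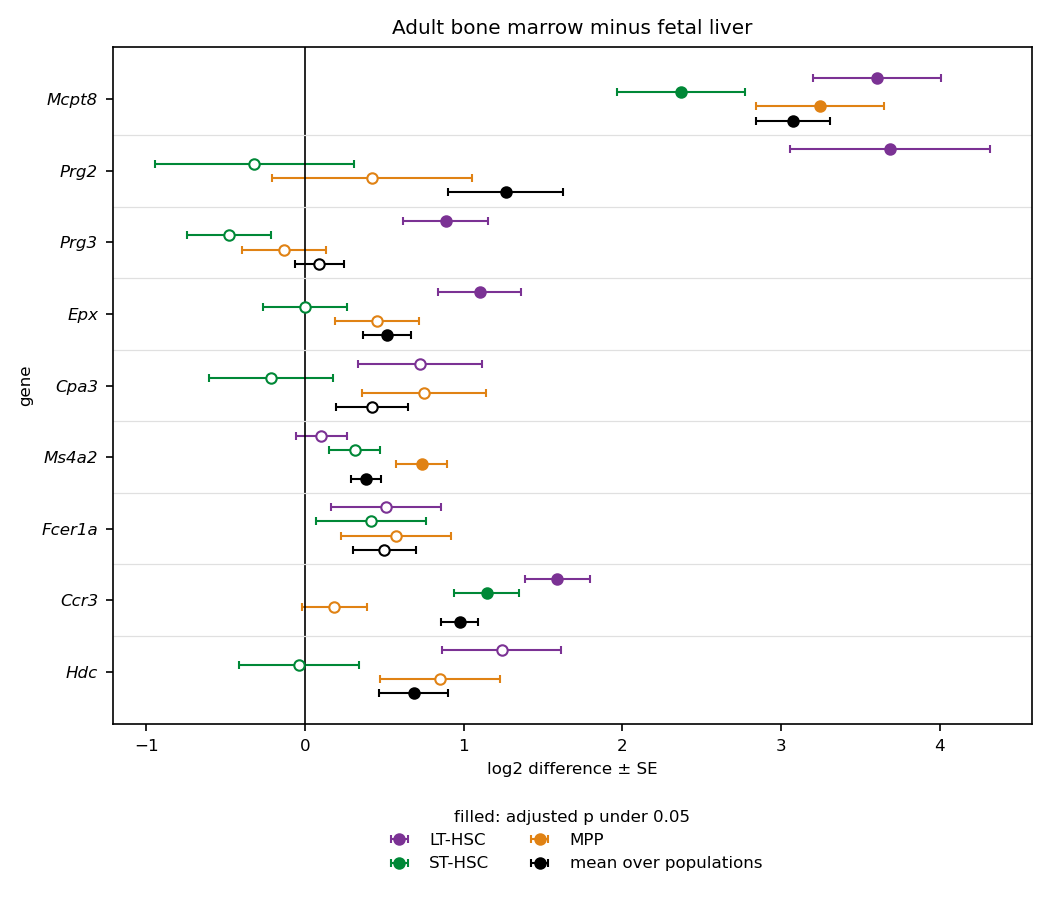
Log2 difference BM minus FL of each member in LT-HSC, ST-HSC, MPP and their mean, with the standard error of the limma fit as bars; filled marks are called. Mcpt8 is called in all 4, Prg2 stands at 3.69 in LT-HSC and is called neither in ST-HSC nor in MPP, and Ms4a2 is called in MPP and in the mean.

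Of the 2 IgE receptor chains, Ms4a2 had its highest mean in BM MPP. It read 6.14, 6.24 and 5.88 in BM MPP, against 5.37, 5.42 and 5.27 in FL MPP, with no overlap. The difference was 0.74 ± 0.16 (adjusted p = 0.00868). It was 0.66 (adjusted p = 0.0583) without BM MPP b and 0.82 (adjusted p = 0.218) without the arrays described as sgEzh2. The other 5 groups had means of 5.20 to 5.51. BM MPP also exceeded BM LT-HSC, at 5.49, 5.07 and 5.83, by 0.62 ± 0.16 (adjusted p = 0.0315), and BM ST-HSC, at 5.40, 5.64 and 5.50, by 0.57 ± 0.16 (adjusted p = 0.0416). The step from LT-HSC was lost without array a or b of either BM MPP or BM LT-HSC (adjusted p of 0.0677 to 0.163), and that from ST-HSC without any 1 of 10 arrays (adjusted p of 0.051 to 0.184). Both calls were lost without the arrays described as sgEzh2, with differences unchanged at 0.62 and 0.57. These BM differences do not use those FL arrays, but the shared estimate of the spread does. In FL the same step from LT-HSC was -0.01 ± 0.16. The test of the difference between the steps in BM and FL gave 0.63 ± 0.23 (adjusted p = 0.398), so the steps were not shown to differ. The probe set lies in the dimmest 30% of genes.

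Fcer1a was called in no comparison. It read 6.80, 6.32 and 8.37 in BM LT-HSC, against 6.76, 6.78 and 6.43 in FL LT-HSC. Array c alone placed the BM mean above that of FL: the difference was 0.51 ± 0.35 with it and -0.09 without it. In MPP it read 7.12, 7.53 and 7.09 in BM, against 6.97, 6.51 and 6.54 in FL, with no overlap and a difference of 0.57 ± 0.35 (adjusted p = 0.482). In ST-HSC it read 6.90, 6.90 and 6.60 in BM, against 6.70, 6.43 and 6.02 in FL. The mean over populations was 0.50 ± 0.20 (adjusted p = 0.078), and 0.30 (adjusted p = 0.0657) without BM LT-HSC c.

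Ccr3, the chemokine receptor, ran against Cpa3 and Ms4a2 in BM. In BM it read 6.43, 6.69 and 7.47 in LT-HSC, 6.17, 6.31 and 5.98 in ST-HSC and 5.95, 5.67 and 5.38 in MPP. These 3 BM groups did not overlap, LT-HSC being the highest and MPP the lowest. In FL it read 5.30, 5.12 and 5.39 in LT-HSC, 4.94, 5.11 and 4.98 in ST-HSC and 5.41, 5.37 and 5.67 in MPP. The difference of MPP from LT-HSC was -1.20 ± 0.21 in BM (adjusted p = 0.00178, and -0.89 without BM LT-HSC c) and 0.21 ± 0.21 in FL (adjusted p = 0.738). The difference between the 2 steps was -1.40 ± 0.29 (adjusted p = 0.0321), and -1.10 (adjusted p = 0.0142) without BM LT-HSC c. Ccr3 was the 1 member of 9 called in that test, beside 0.328% of all genes called in the same direction. Leaving out any 1 of 9 other arrays raised its adjusted p to between 0.0503 and 0.121 (FL LT-HSC a, b and c, FL ST-HSC c, FL MPP a, b and c, BM MPP b and c), with differences of -1.46 to -1.26. Without the arrays described as sgEzh2 it was -1.60 (adjusted p = 0.48). The F test did not call Ccr3 (adjusted p = 0.0562), though it did without BM LT-HSC c (adjusted p = 0.0126). Between sources, Ccr3 was higher in BM by 1.59 ± 0.21 in LT-HSC (adjusted p = 5.64e-05) and by 1.15 ± 0.21 in ST-HSC (adjusted p = 0.00117). In MPP the difference was 0.19 ± 0.21 (adjusted p = 0.778).

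Hdc read 8.57, 8.33 and 10.18 in BM LT-HSC, against 7.71, 7.69 and 7.98 in FL LT-HSC. The arrays did not overlap, and the difference of 1.24 ± 0.38 was not called (adjusted p = 0.0536). It was 0.66 (adjusted p = 0.19) without BM LT-HSC c, but it was called without FL MPP b (adjusted p = 0.0201), BM LT-HSC a (adjusted p = 0.0413) or BM LT-HSC b (adjusted p = 0.0171). In ST-HSC it read 8.56, 8.48 and 8.63 in BM, against 8.68, 8.59 and 8.52 in FL, ranges that overlap. In MPP it read 9.41, 9.64 and 9.49 in BM, against 9.20, 7.695 and 9.10 in FL, where FL MPP b stood well below the other arrays. Over the mean of the populations Hdc was 0.68 ± 0.22 higher in BM (adjusted p = 0.0274). This call was lost without FL MPP b (0.52, adjusted p = 0.0525), BM ST-HSC c (adjusted p = 0.0501) or BM MPP b (adjusted p = 0.0515).

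In LT-HSC, 5 of 9 were called higher in BM (Mcpt8, Prg2, Prg3, Epx and Ccr3), beside 4.58% of all genes, and all 3 BM arrays lay above all 3 FL arrays for 6 of 9, beside 8.02% of all genes. Without BM LT-HSC c the call was made for 3 of 9, Mcpt8, Prg2 and Ccr3, beside 5.94% of all genes in that fit. In ST-HSC 2 of 9 were called higher (Mcpt8 and Ccr3), beside 6.52% of all genes. There the arrays did not overlap for 3 members higher in BM, beside 16% of all genes, and for 1 member lower, Prg3, beside 18.8%. In MPP 2 of 9 were called higher (Mcpt8 and Ms4a2), beside 3.55% of all genes, and 5 of 9 had all BM arrays above all FL arrays, beside 13.8%. No member was called lower in BM, beside 3.08% of all genes in LT-HSC, 12.1% in ST-HSC and 1.92% in MPP.

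From LT-HSC to MPP, 2 of 9 were called higher in BM (Cpa3 and Ms4a2), beside 2.35% of all genes, and 1 lower (Ccr3), beside 2.23%. In FL, 1 of 9 was called higher (Cpa3), beside 1.84% of all genes. Without BM LT-HSC c, Mcpt8 and Hdc were also called higher in BM MPP, which makes 4 of 9, beside 2.31% of all genes in that fit. Mcpt8, Prg2 and Prg3 were also called in FL MPP, again 4 of 9, beside 3.05%, although the FL differences do not use that array. From ST-HSC to MPP, 3 of 9 were called higher in BM (Mcpt8, Cpa3 and Ms4a2), beside 4.79% of all genes, and 1 of 9 in FL (Cpa3), beside 0.677%. From LT-HSC to ST-HSC limma called none of the 9, in BM beside 1.71% of all genes and in FL beside 0.559%. At an unadjusted p under 0.05 there were 5 of 9 in BM, all lower in ST-HSC (Mcpt8, Prg2, Prg3, Epx and Ccr3), beside 12.6% of all genes in either direction, and 2 of 9 in FL, both higher in ST-HSC (Prg2 and Hdc), beside 8.76%. The F test of the interaction called none of the 9 in limma, beside 0.82% of all genes, and 5 of 9 had an unadjusted p under 0.05, beside 12.4%.

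**Figure D3:**
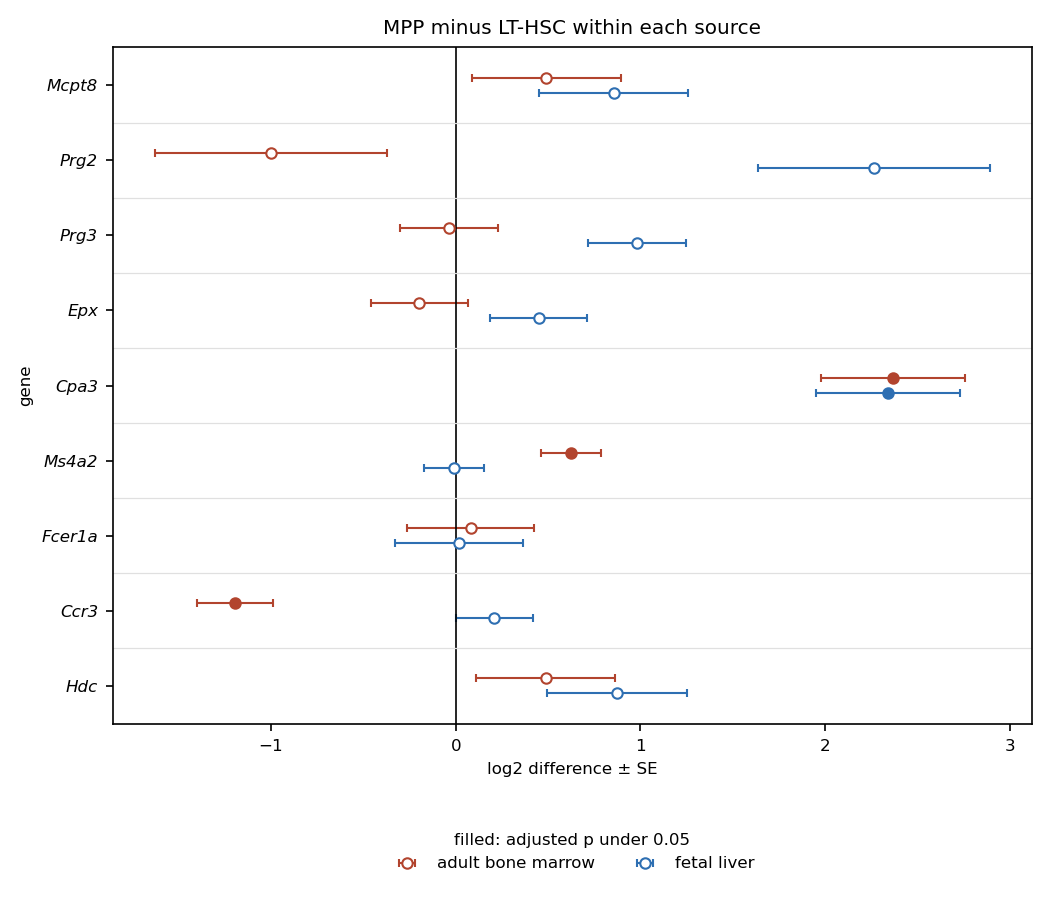
Log2 difference MPP minus LT-HSC of each member, BM above FL, with the standard error of the limma fit as bars; filled marks are called. Cpa3 stands at 2.37 in BM and 2.34 in FL, while Ccr3 is at -1.20 in BM and 0.21 in FL.

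The genes whose profiles over the 18 arrays were most like those of the members differed between members, and are given as a description, since the arrays share groups and processing. The r values rest on all 18 arrays, BM LT-HSC c included. Only the 6 members whose group means spanned at least 1 log2 unit were searched. Mcpt8 was closest to Ly6c2, Trem3 and Slamf7 (Pearson r of 0.96 each). Cpa3 was closest to Ccl9, Mpo and Dtx4 (r of 0.95 each), Mpo being the myeloperoxidase of primary granules. Ccr3 was closest to Il1rn (r of 0.96), Slc11a1 and Lgals3 (r of 0.95 each). Hdc was closest to Igsf6 (0.92), Cldn15 and Ms4a3 (0.91 each). Prg2 was closest to Lamtor4 (0.84), Hp (0.83) and Clec5a (0.82). Epx was closest to Cebpe (0.83), a transcription factor of late granulocyte maturation, and to Lamtor4 and Pi16 (0.82 each). The order changed without BM LT-HSC c. Ly6c2, Trem3 and Slamf7 then ranked 3, 6 and 7 for Mcpt8 (r of 0.96, 0.96 and 0.95), and Cebpe, Pi16 and Lamtor4 ranked 2, 4 and 7 for Epx (0.74, 0.73 and 0.73). Lamtor4 still ranked 1 for Prg2 (0.80), Ccl9 for Cpa3 (0.95) and Il1rn for Ccr3 (0.93), while Ms4a3 ranked 1 for Hdc (0.91).

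The levels of neutrophil genes moved with some members, and their part in the result was not tested. Over the mean of the populations, all 12 late neutrophil genes were called higher in BM, with a median difference of 4.35. So were 5 of 7 primary granule genes, beside 9.26% of all genes. The mean of the late neutrophil genes was 10.86 to 12.43 on the BM LT-HSC arrays, 10.36 to 10.87 on those of BM ST-HSC and 9.80 to 10.28 on those of BM MPP, the order in which Ccr3 was also found. In the 3 FL groups it stayed between 6.35 and 7.24, and Ccr3 between 4.94 and 5.67. The mean of the 7 primary granule genes was 11.42 to 11.55 in BM MPP, against 9.89 to 11.55 in BM LT-HSC, and 9.81 to 10.54 in FL MPP, against 8.33 to 8.68 in FL LT-HSC, which is the direction of Cpa3 in both sources. Of the 10 macrophage genes 7 were called higher in BM, and of the 8 B cell genes 7, beside the same 9.26% of all genes.

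**Figure D4:**
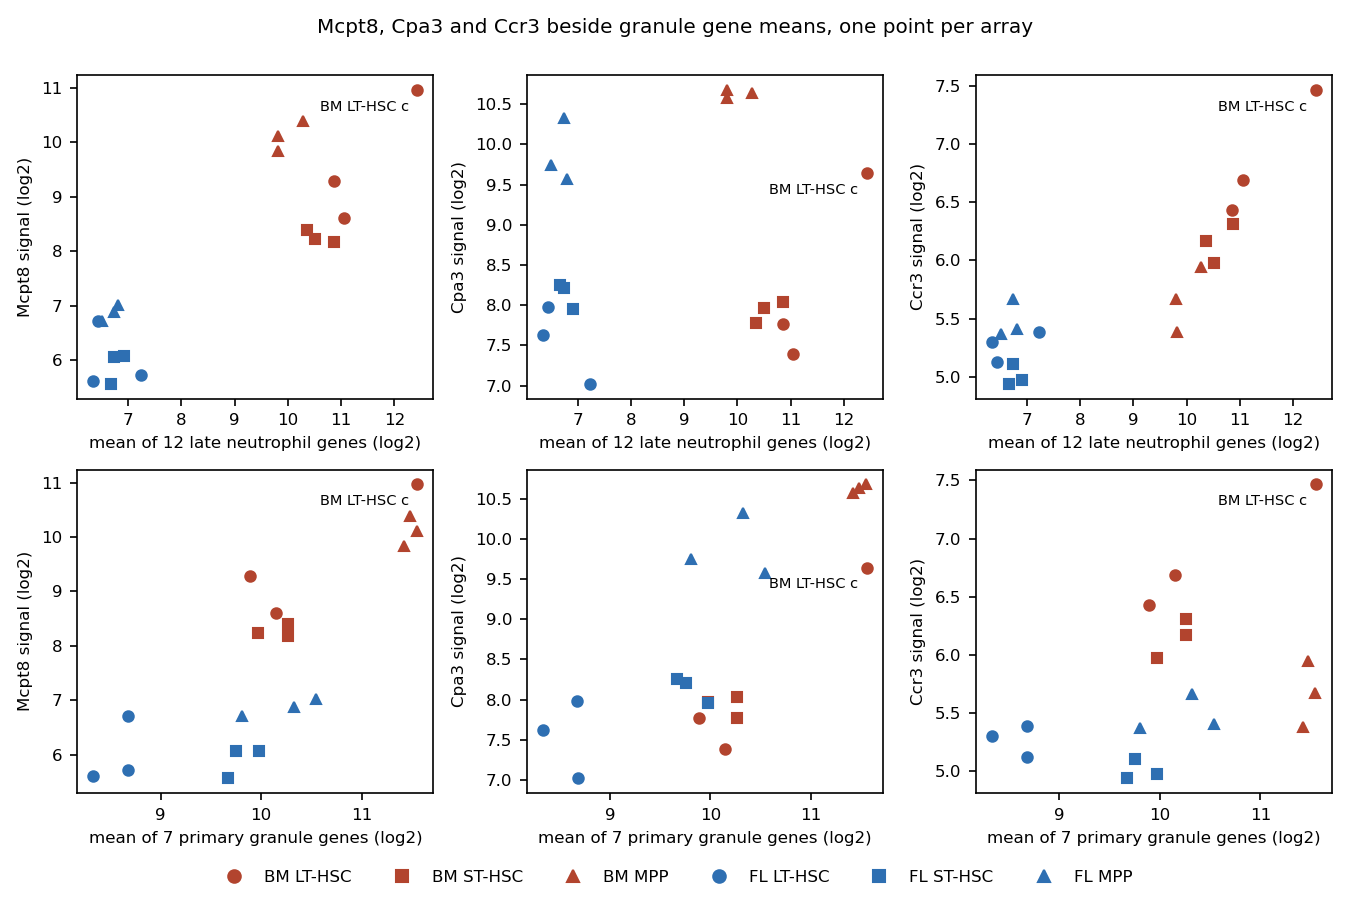
Log2 signal of Mcpt8, Cpa3 and Ccr3 on each array against the mean of 12 late neutrophil genes and the mean of 7 primary granule genes, by group. Ccr3 and the late neutrophil mean are both highest on BM LT-HSC c, and the late neutrophil mean parts every BM array from every FL array.

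Other genes of these lineages did not follow the members as a block. Of 12 mast cell proteases and receptors, 1 was called higher in BM over the mean of the populations and the other 11 were not called. Of all genes, 9.26% were called higher and 15.9% lower in that comparison. The counts of the lists in the following paragraphs stand beside the same shares. The called gene was Ctsg, cathepsin G, which neutrophil precursors also make, with a difference of 2.01 ± 0.24 (adjusted p = 5.77e-06). The chymase genes Mcpt4 (0.20 ± 0.12, adjusted p = 0.275) and Cma1 (0.01 ± 0.09, adjusted p = 0.934) and the tryptase gene Tpsb2 (0.18 ± 0.07, adjusted p = 0.0786), all of mature mast cells, were among those not called.

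Of 12 further basophil and eosinophil markers, 1 was called higher in BM and 3 lower. Prss34, a serine protease of mouse basophils and mast cells, was higher by 2.53 ± 0.27 (adjusted p = 1.70e-06), with 9.49 to 12.30 on the BM LT-HSC arrays, against 7.30 to 8.37 on those of FL LT-HSC. The 3 lower genes were Il4, the interleukin that basophils release, at -0.94 ± 0.22 (adjusted p = 0.0035), Cd200r3, a basophil surface receptor, at -0.86 ± 0.14 (adjusted p = 0.000158), and Il5ra, the interleukin 5 receptor of eosinophils, at -0.79 ± 0.15 (adjusted p = 0.000644). From LT-HSC to MPP, Siglecf, a sialic acid receptor of eosinophils, was higher in MPP by 1.12 ± 0.26 in BM (adjusted p = 0.0167) and by 2.27 ± 0.26 in FL (adjusted p = 2.35e-05), the direction of Cpa3. Il4 went the other way, at -2.17 ± 0.37 in BM (adjusted p = 0.00173) and -1.80 ± 0.37 in FL (adjusted p = 0.00908), and Il5ra was higher in FL MPP by 1.23 ± 0.26 (adjusted p = 0.00935).

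Of 13 genes of IgE receptor signalling, 3 were called higher in BM and 3 lower. The higher genes were the adaptors Lat2 (1.40 ± 0.12) and Lat (0.999 ± 0.08) and the receptor's gamma chain Fcer1g (0.60 ± 0.15, adjusted p = 0.00694). Lower were the kinase Fyn (-0.69 ± 0.12) and the phospholipases Plcg2 (-0.55 ± 0.09) and Plcg1 (-0.53 ± 0.11). Of 8 cytokine receptors of the lineages, 4 were called higher and 1 lower, the first led by Il18r1 (0.996 ± 0.14) and Csf2ra (0.53 ± 0.09), and the lower one being Il5ra again. Of 14 transcription factors, 6 were called higher, led by Cebpe (0.95 ± 0.21) and Trib1 (0.91 ± 0.09), both of granulocyte and eosinophil development, and including Gata2 (0.53 ± 0.17, adjusted p = 0.0312). The 1 called lower was Id1 (-1.25 ± 0.12). Of 9 genes of mediator synthesis and storage, 5 were called higher and none lower over that mean. Among them were the prostaglandin synthase Ptgs2 (2.01 ± 0.15), the lipoxygenase Alox5 (0.84 ± 0.14), the granule proteoglycan Srgn (0.59 ± 0.06) and the histamine-degrading enzyme Hnmt (0.48 ± 0.14). In MPP alone, 3 of the 9 were called higher in BM and 1 lower, beside 3.55% and 1.92% of all genes. The lower one was Hpgds, with means of 6.64 in BM MPP and 7.96 in FL MPP.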

How the data were processed

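RNA of the sorted cells was hybridised to Affymetrix Clariom S arrays, with 1 array for each of the 18 samples. Per the labels' protocols, an RNeasy Micro kit gave the total RNA, and 2 ng of it was labelled with the GeneChip Pico kit after 10 pre-IVT PCR cycles. The authors deposited log2 signals, 1 per probe set, made in R 3.5.01 with oligo, per the submitters' processing notes. How background, normalization and summarization were handled is not given in the sources used here.

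Of 22203 probe sets, 19572 carried 1 symbol in the platform annotation, each found in RefSeq (GRCm38.p6). The brightest probe set stood for a symbol (67 others set aside), which left 19505 genes. A model of 6 group means was fitted to the 18 arrays by lmFit and eBayes of limma 3.58.1 (R 4.3.3). It gave the differences between groups and their mean over populations, the interaction contrast and an F test, with Benjamini-Hochberg adjustment over all genes. Precision is limited by the number of arrays, with a median standard error over genes of 0.17 for a difference of 3 arrays from 3, 0.10 for the mean over populations and 0.24 for the interaction. The fit was tested on simulated data. The members, lists and alternatives were chosen with earlier results of these data known. All 9 members were tested and counted in every comparison, and those called are named. Of the other lists, up to 4 genes with the largest absolute difference are named, besides Cma1, Plcg1, Plcg2 and Hpgds, which were named after their values were seen. Promoter letters came from RefSeq windows, and 8 of 9 members matched. Alternatives changed 1 choice each, except that trend and robust eBayes were set together: an array left out, median centring, quantile normalization, the dimmest 30% of genes left out, the mean of probe sets, array weights, that eBayes setting, only the groups compared, a log2 difference of at least 1, narrow arrays left out, arrays described as sgEzh2 left out, and a replicate block.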

Additional observations from a re-analysis of the deposited data

Results flagged for a closer look

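The change of Ccr3 across populations differed between the sources by a test of the difference itself: MPP minus LT-HSC in BM less that in FL was -1.40 ± 0.29 (limma, adjusted p = 0.0321). The step was -1.20 in BM and 0.21 in FL. The call was lost in 9 of the 18 fits that left out 1 array (adjusted p of up to 0.121). It was also lost without the arrays described as sgEzh2 (-1.60, adjusted p = 0.48), with only the groups compared in the fit (adjusted p = 0.116) and under a replicate block (adjusted p = 0.0556). The F test over all steps did not call Ccr3 (adjusted p = 0.0562). The late neutrophil genes moved the same way between the BM populations, and their part in the result was not tested. Groups of 3 arrays were not tested for single outlying arrays.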

How the results depend on the processing

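Each array left out in turn, the number of members called ranged from 5 to 8 for BM minus FL over the mean (6 with all arrays), from 3 to 6 in LT-HSC (5), stayed at 2 in ST-HSC, and ranged from 1 to 3 in MPP (2). For MPP minus LT-HSC it was 2 to 5 in BM (3) and 1 to 4 in FL (1), for MPP minus ST-HSC 1 to 6 in BM (3) and 0 to 2 in FL (1), and for ST-HSC minus LT-HSC 0 to 3 in BM (0) and 0 in FL (0). It was 0 to 2 for the interaction contrast (1) and 0 to 3 for the F test (0). Without BM LT-HSC c the LT-HSC count was 3, as it was without FL LT-HSC a. The share of all genes called also moved between fits. For genes higher in BM MPP than in FL MPP it was 3.55% with all arrays and 5.02% without BM LT-HSC c. A changed count of members, here or below, is therefore not a result about the members alone.

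The mean of probe sets changed no count. Median centring and quantile normalization kept each count of members within 1.5 times. Leaving out the dimmest 30% of genes removed Ms4a2 and Ccr3 and gave 1 in ST-HSC, 1 in MPP, 1 for MPP minus LT-HSC in BM, 3 for it in FL, and 0 for the interaction. Array weights gave 3 in LT-HSC, 4 in MPP, 1 for ST-HSC minus LT-HSC in BM, 7 for MPP minus ST-HSC in BM, 4 for MPP minus LT-HSC in FL, 2 for MPP minus ST-HSC in FL, 2 for the interaction and 3 for the F test. Trended and robust eBayes gave 3 for MPP minus LT-HSC in FL and 2 for the F test. With only the groups compared in the fit there were 3 in LT-HSC, 4 in MPP, 0 for MPP minus LT-HSC in BM and 3 in FL, 2 for ST-HSC minus LT-HSC in FL, 2 for MPP minus ST-HSC in FL and 0 for the interaction. A log2 difference of at least 1 left 2 for the mean and 1 in MPP. Without the 4 narrow arrays there were 3 for the mean, 3 in LT-HSC, 5 for MPP minus LT-HSC in BM and 4 in FL, 1 for ST-HSC minus LT-HSC in BM and 1 in FL, 2 for MPP minus ST-HSC in FL, 2 for the interaction and 2 for the F test. Without the arrays described as sgEzh2 there were 3 for the mean, 3 in LT-HSC, 1 in MPP, and 0 each for MPP minus LT-HSC in FL, MPP minus ST-HSC in FL and the interaction; FL MPP then holds 1 array, assumed to vary like the other groups. The fit without the narrow arrays likewise leaves BM ST-HSC with array a alone. The cause of these changes was not tested beyond the number of genes or arrays that each removes.

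No called difference changed sign under any alternative. Differences that were not called did. Not all of these were near 0 with all arrays. BM minus FL in LT-HSC was 0.51 for Fcer1a, and MPP minus LT-HSC in BM was 0.49 for Mcpt8. Under quantile normalization, BM minus FL in ST-HSC was -0.12 for Epx and 0.083 for Hdc, MPP minus LT-HSC in FL was 0.029 for Ms4a2 and the interaction was -0.024 for Fcer1a. Under array weights, BM minus FL was -0.064 for Prg3 over the mean, -0.0093 for Ms4a2 in LT-HSC, 0.30 for Prg2 and -0.080 for Epx in ST-HSC, and MPP minus LT-HSC was 0.25 for Prg3 and 0.086 for Epx in BM and 0.015 for Ms4a2 in FL. Without the narrow arrays, BM minus FL was -0.016 for Prg3 over the mean, -0.041 for Ms4a2 and -0.034 for Fcer1a in LT-HSC and -0.057 for Epx in ST-HSC, MPP minus LT-HSC was 0.36 for Prg3 and 0.068 for Epx in BM and 0.033 for Ms4a2 in FL, and the interaction was 0.24 for Hdc. Without the sgEzh2 arrays, BM minus FL was -0.078 for Epx and 0.0025 for Hdc in ST-HSC and 0.079 for Prg3 in MPP, MPP minus LT-HSC in FL was -0.061 for Fcer1a and the interaction was -0.46 for Cpa3.

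With 1 array left out, BM minus FL ranged from -0.040 to 0.20 for Prg3 over the mean, in LT-HSC from -0.082 to 0.30 for Ms4a2 and from -0.093 to 0.93 for Fcer1a, in ST-HSC from -0.22 to 0.20 for Epx, from -0.075 to 0.0025 for Hdc and from -1.15 to 0.51 for Prg2, and in MPP from -0.27 to 0.11 for Prg3 and from -0.044 to 0.92 for Prg2. MPP minus LT-HSC ranged in BM from -0.34 to 0.68 for Fcer1a, from -0.38 to 0.36 for Prg3, from -0.015 to 1.16 for Mcpt8 and from -0.55 to 0.068 for Epx, and in FL from -0.13 to 0.10 for Fcer1a and from -0.072 to 0.033 for Ms4a2. The interaction ranged from -0.41 to 0.71 for Cpa3, from -0.36 to 0.67 for Fcer1a, from -0.87 to 0.31 for Mcpt8 and from -0.87 to 0.19 for Hdc.

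The letters a, b and c did not pair the arrays. Of 45 same-letter pairs 11 had deviations correlated over 0.1 (median -0.03, beside 0.02 for different letters). For 7 of 18 arrays the mean correlation with arrays of other groups was highest for their own letter. A replicate block took the interaction count of members to 0 (Ccr3, adjusted p = 0.0556) and kept the other counts within 1.5 times.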
